A study of Mus musculus with 24 samples.

Results

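The genes described here charge transfer RNAs with amino acids or supply the cell with amino acids. They were chosen by name from a list of 36 genes: 20 cytosolic aminoacyl-tRNA synthetases, 7 genes of the ATF4 pathway and 9 amino acid transporters. All 36 were found among the 22009 named genes of the deposited table, under the names listed. RNA sequencing was carried out on CD4+ T cells purified from the spleen of WT C57BL/6 mice, without any gene deletion or transgene. The labels give negative selection of all CD4+ cells, while the methods of the study call the cultured cells naive. Cells pooled from several mice were activated in vitro with anti-CD3 and anti-CD28, alone (Th0), with IL-12 and an antibody to IL-4 (Th1), or with IL-4 and antibodies to IL-12 and IFN-γ (Th2). Each of the 3 conditions was sequenced once at 4, 8, 12, 16, 20 and 24 h, which gave 18 libraries, here called cultures, beside 2 libraries of resting cells. The other 4 libraries came from cells activated for 16 h and then kept with actinomycin, which stops transcription, for 0, 1, 2 or 4 h. The skewing condition of these 4 libraries is not given.

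Aminoacyl-tRNA synthetases join each amino acid to its transfer RNA, and every protein made in the cytosol draws on them. ATF4 is a transcription factor whose translation rises when the kinases of eIF2α sense a lack of amino acids or other stress, and its known targets include many synthetase and transporter genes as well as Asns, Trib3, Chac1, Sesn2 and Ddit3. T cells that leave the resting state grow before they divide, and they are known to take up glutamine, leucine and other neutral amino acids through transporters such as SLC1A5 and SLC7A5.

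Values are RPKM, reads per kilobase of transcript scaled to the mapped reads of the library, as made by the authors. The depth recovered from these values was 17512385 to 33017133 mapped reads per library. Changes were computed on log2(RPKM + 0.5) with limma, which understates the change of low genes, and a gene was called at an adjusted p under 0.05 with at least a 2-fold change. Each time point was represented by its 3 cultures, so p-values measure the spread between these libraries and not between animals. The labels tag the resting libraries differently from the cultures, and activation and preparation cannot be told apart. In bulk RNA, fewer cells of a type and less RNA per cell cannot be told apart. The 8 T cell markers, Cd4 among them, summed to 2049 to 2082 RPKM at rest and to 1428 to 1720 RPKM in the cultures. The summed RPKM of 8 red cell markers was 38898 to 42449 at rest, 29411 to 47142 at 4 h, with Th2 above rest, and 142 to 212 at 24 h, and that of 9 macrophage and monocyte markers was 572 to 593 at rest, 46.4 to 78.0 at 4 h and 8.07 to 12.8 at 24 h. All 9 macrophage and monocyte genes were below both resting libraries in every culture, C1qa being at 0 in 1 of them, and all 8 red cell genes in every culture from 8 h on. The part of these other cells in the results was not tested. The libraries of Th0 and Th2 at 8 h, Th2 at 4 h and Th2 at 24 h stood farthest from the other cultures of their time points, with an SD of the log2 difference of 0.41 to 0.54 against 0.25 to 0.39 for the others.

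Most synthetase genes rose over the first 12 to 20 h of activation, and 3 genes of the ATF4 pathway were lower than at rest. Most transporters rose, Slc3a2 and Slc1a5 with their highest mean at 8 h and lower values later. Slc38a2 and Slc7a11 stayed near their resting level. Of the 36 members, 35 had a mean of at least 1 RPKM over the time course and were tested, and Chac1 was not. At 4 h, 1 member was higher (2.61% of all genes tested) and 2 were lower (7.97%). At 8 h, 9 were higher (6.42%) and 2 lower (12.5%). At 12 h, 18 were higher (10.7%) and 2 lower (16.4%), and at 16 h again 18 were higher (11.2%) and 2 lower (14.5%). The number of higher members was greatest at 20 h, with 22 (12.9%) against 2 lower (16.1%), and at 24 h there were 17 higher (12.7%) and 3 lower (17.4%). The median log2 change of the members was 0.10 at 4 h, 0.73 at 8 h and 0.99 at 24 h, beside -0.04 for all genes tested at 4 h and again -0.04 at 24 h. The map of all members by library shows most synthetases above rest from 12 h on in each condition. In Th2 many, Eprs, Rars and Tars among them, were above rest at 4 h already.

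**Figure D1:**
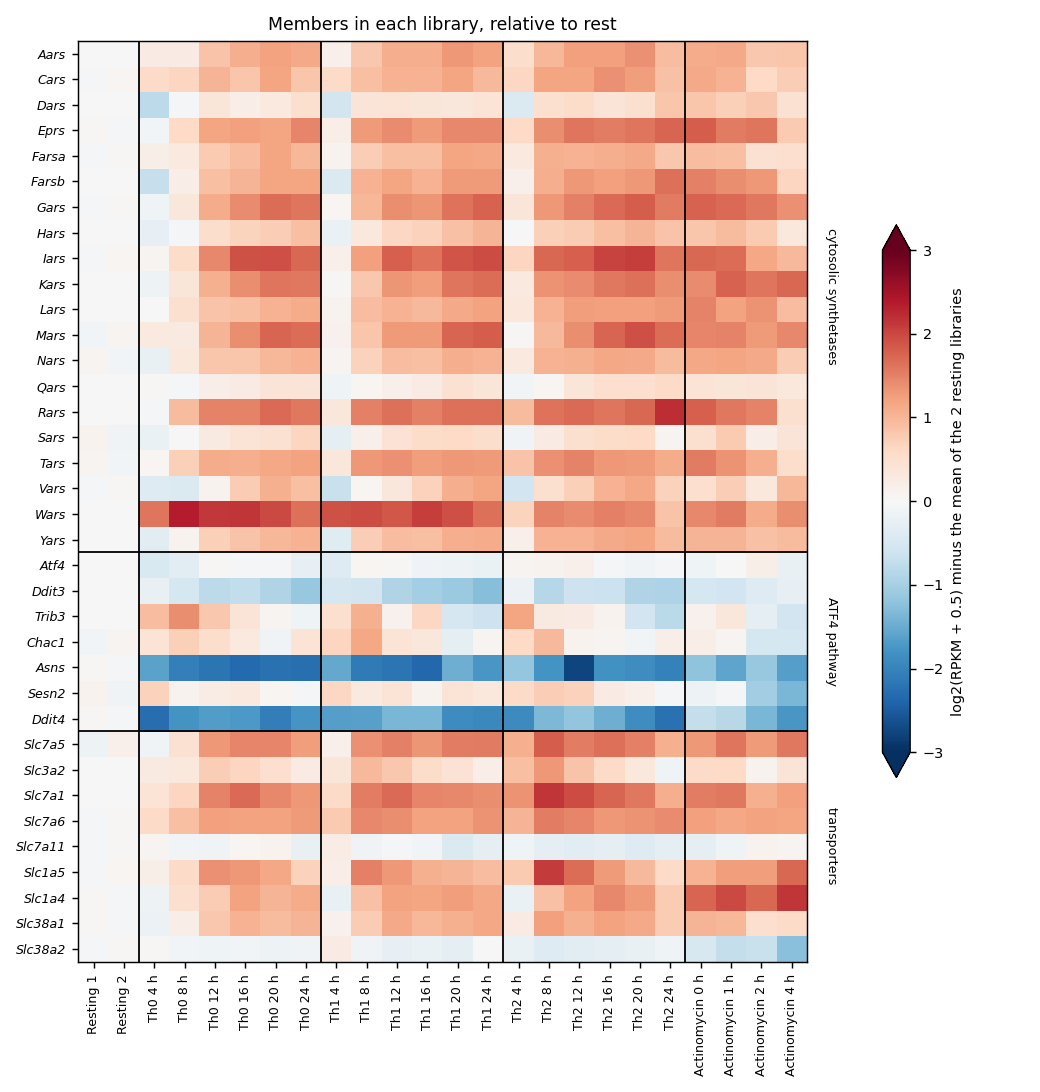
Each row is 1 of the 36 members and each column 1 of the 24 libraries. The colour gives log2(RPKM + 0.5) minus the mean of the 2 resting libraries. Asns and Ddit4 are below rest in every culture, and Rars, Iars and Wars are among the genes farthest above it.

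The largest rises among the synthetases at 24 h were those of Rars, Iars and Mars, which charge the transfer RNAs of arginine, isoleucine and methionine. Rars (GRCm38, chr11:35808381-35834506) was at 47 and 45.7 RPKM at rest. It had 44.2, 90.3, 131, 130.4, 151 and 140.0 RPKM in the Th0 cultures at 4, 8, 12, 16, 20 and 24 h. In Th1 the values were 58.3, 133, 148, 133, 147 and 147 RPKM. In Th2 they were 90.1, 144, 153, 143, 154 and 216 RPKM. The Th0 library at 4 h was below both resting libraries, and the other 17 cultures were above both. At 24 h Rars was 3.52-fold above rest (log2 change 1.82, standard error 0.24, adjusted p = 8.08e-06, limma), and the Th2 library at 24 h was the highest of the time course.

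Iars (GRCm38, chr13:49682100-49734267) had 28.4 and 30.6 RPKM at rest. The Th0 cultures gave 31, 43.1, 80.4, 112, 114 and 99.1 RPKM at the 6 time points, the Th1 cultures 32.9, 69.5, 103, 92.3, 111 and 115 RPKM, and the Th2 cultures 46.6, 98.5, 103, 121, 125 and 90.7 RPKM. The 18 cultures were all above both resting libraries. Iars was not called at 4 h (log2 change 0.29, standard error 0.25, adjusted p = 0.399, limma). By 24 h it was 3.39-fold above rest (log2 change 1.76, standard error 0.25, adjusted p = 1.53e-05, limma).

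Mars (GRCm38, chr10:127296221-127311786) had 27 and 30.1 RPKM at rest. Th0 cultures had 34.8, 34.5, 58.6, 76, 96.9 and 92.4 RPKM, Th1 cultures 31, 50.7, 69.7, 69.8, 96.6 and 101 RPKM and Th2 cultures 29.4, 56.8, 75.1, 97.3, 109.9 and 92.2 RPKM over the 6 time points. The Th2 library at 4 h lay between the resting libraries, and each condition had its highest value at 20 or 24 h. At 24 h the change was 3.3-fold (log2 change 1.72, standard error 0.18, adjusted p = 6.57e-07, limma). Of its annotated exonic bases 1.99% also lie in an exon of Ddit3 on the opposite strand, and whether reads were counted by strand is not given in the sources used here.

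At 24 h, 13 of the 20 synthetases were higher and none was lower, with a median log2 change of 1.15. Besides the 3 genes above these were Aars, Eprs, Farsb, Gars, Kars, Lars, Nars, Tars, Wars and Yars, the genes for alanine, glutamate and proline, the phenylalanine β subunit, glycine, lysine, leucine, asparagine, threonine, tryptophan and tyrosine. Over the time course Aars ranged from 29.8 to 78.8 RPKM, Eprs from 31.3 to 113 RPKM, Farsb from 18.1 to 94.4 RPKM, Kars from 46.9 to 165 RPKM and Lars from 18.5 to 46.4 RPKM. Nars ranged from 46 to 121 RPKM, Tars from 24.7 to 73.9 RPKM and Yars from 21.5 to 63.5 RPKM. Their changes at 24 h were between 2.02-fold for Nars and 3.12-fold for Gars, none as large as those of Rars, Iars and Mars. The calls of Nars and Yars were lost (log2 changes of 0.814 to 0.996) without the Th1 cultures, without the red cell genes and with upper-quartile or quantile scaling, that of Nars also without resting replicate 2, and that of Aars without the red cell genes (0.996). Gars had 37.4 ± 0.981 RPKM (SD, n = 2) at rest and 118 ± 9.08 RPKM at 24 h (SD, n = 3 cultures).

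Cars, Farsa and Vars were called at an earlier time point but not at 24 h, Farsa (the phenylalanine α subunit, 34.3 to 80.8 RPKM) and Vars at 20 h and Cars at 12, 16 and 20 h. Cars, for cysteine, had the largest log2 change after Wars among the synthetases at 4 h (0.59, standard error 0.15, adjusted p = 0.00528, limma), which stayed under 2-fold. It had 20.6 and 22.5 RPKM at rest, then 32.5, 33.7, 44.4, 39, 50.005 and 38.9 RPKM in the Th0 cultures, 32.5, 40.9, 44.8, 45, 49.5 and 43.1 RPKM in those of Th1 and 33.4, 49.3, 49.7, 56.4, 51.8 and 39.9 RPKM in those of Th2. Its values were above rest in all 18 cultures. Vars, for valine, was at 90.5 ± 3.65 RPKM (SD, n = 2) at rest and at 69.5 RPKM in Th0, 57 in Th1 and 60.6 in Th2 at 4 h, below both resting libraries, before it reached 189 RPKM in Th0, 193 in Th1 and 204 in Th2 at 20 h.

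Dars, Hars, Qars and Sars, for aspartate, histidine, glutamine and serine, were called at no time point. Over the time course they ranged from 34.9 to 108 RPKM (Dars), 33.6 to 81.7 RPKM (Hars), 75.7 to 125 RPKM (Qars) and 58.4 to 109.9 RPKM (Sars). Each had an adjusted p under 0.05 at 24 h in limma, with changes of 1.49-fold, 1.89-fold, 1.36-fold and 1.33-fold. At any fold, 3447 of 10897 genes tested were higher at that threshold and 3658 were lower. At 4 h Dars was at 34.9, 41.3 and 44.8 RPKM in Th0, Th1 and Th2, below both resting libraries (60.7 and 59.8 RPKM). Sars was then at 61.3, 58.4 and 65.6 RPKM, against 76.1 and 65.4 RPKM at rest. Qars, at 83.1 ± 1.16 RPKM (SD, n = 2) at rest, and Vars had the highest resting levels per length among the synthetases. The mean of the 3 cultures was highest at 20 or 24 h for 18 of the 20 synthetases, a position taken by 17.6% (20 h) and 22.1% (24 h) of all genes tested. The exceptions were Tars at 12 h and Wars at 8 h.

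Summed over the 20 synthetases, the level was 844 and 834 RPKM at rest, 823, 873 and 980 RPKM in Th0, Th1 and Th2 at 4 h, and 1836, 1947 and 1849 RPKM at 24 h. The increase in the sum fell mostly between 4 and 12 h, when it reached 1510 RPKM for Th0, 1682 RPKM for Th1 and 1813 RPKM for Th2.

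**Figure D2:**
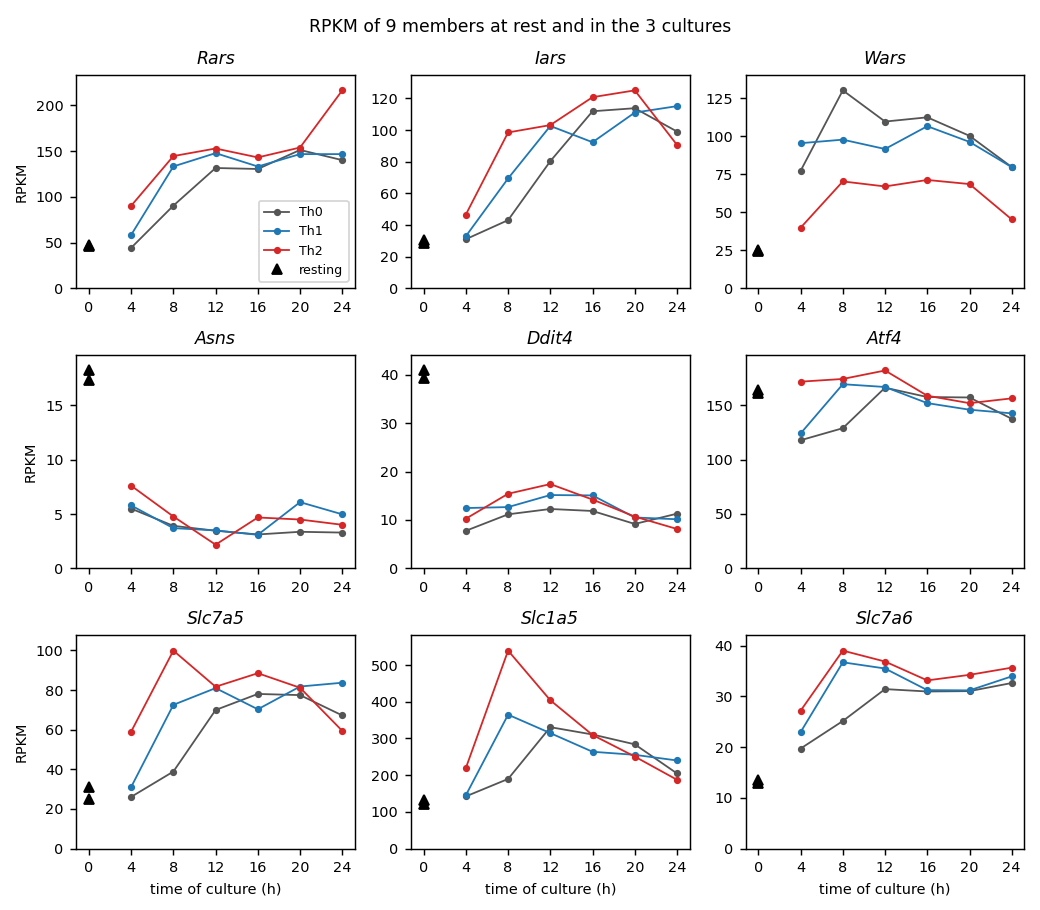
RPKM (vertical axes, from 0) of 9 members against hours of culture. Lines join the single libraries of Th0, Th1 and Th2, and triangles are the 2 resting libraries. Wars is lowest in Th2 at each time point, Slc7a5 and Slc1a5 peak at 8 h in Th2, and Asns and Ddit4 lie below rest throughout.

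Wars, the tryptophan synthetase, followed a course of its own and was the only member called higher at 4 h in the main fit. At any fold, 5 members, Wars among them, were higher at 4 h at an adjusted p under 0.05 in limma. Of the 10897 genes tested, 1250 were. IFN-γ is a known inducer of this gene. Wars (GRCm38, chr12:108860030-108894174) had 25.2 and 24.6 RPKM at rest. Th0 cultures had 77.3, 130.3, 109.8, 113, 100.4 and 79.8 RPKM, Th1 cultures 95.5, 97.9, 91.7, 107, 96.4 and 79.8 RPKM and Th2 cultures 39.9, 70.4, 67.1, 71.3, 68.6 and 45.4 RPKM from 4 to 24 h. All 18 cultures were above rest, and the Th2 library was the lowest of the 3 at each of the 6 time points. The change at 4 h was 2.64-fold (log2 change 1.40, standard error 0.35, adjusted p = 0.00574, limma). Without the Th1 cultures the log2 change at 4 h was 1.14 and was no longer called (adjusted p = 0.0877, limma; 9.90e-07 to 0.0877 over the alternatives).

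No gene of the ATF4 pathway was called higher than at rest at any time point in the main fit. With quantile normalization Sesn2 and Trib3 were called higher at 4 h. Of the 6 tested at 24 h, none was higher and 3 were lower, and their median log2 change was -0.81. Atf4 itself, the transcription factor of the pathway, had 163 ± 1.97 RPKM (SD, n = 2) at rest and ranged from 118 to 182 RPKM over the time course. Its log2 change was -0.26 at 4 h (standard error 0.15) and -0.16 at 24 h (standard error 0.15), and no time point was called. The protein, which is known to be set largely by translation, was not measured.

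Asns, the enzyme that makes asparagine from aspartate and glutamine, was lower from 4 h on. It lies at chr6:7675169-7693254 on the minus strand of GRCm38. Asns had 18.2 and 17.3 RPKM at rest, then 5.5, 3.91, 3.46, 3.12, 3.37 and 3.29 RPKM in the Th0 cultures, 5.79, 3.7, 3.49, 3.09, 6.09 and 4.97 RPKM in those of Th1 and 7.6, 4.77, 2.18, 4.68, 4.49 and 4.01 RPKM in those of Th2. No culture came near the resting libraries, and the highest of them, Th2 at 4 h, was at 7.6 RPKM. It was 2.71-fold lower at 4 h (log2 change -1.44, standard error 0.24, adjusted p = 0.000253, limma) and 4.02-fold lower at 24 h (log2 change -2.01, standard error 0.24, adjusted p = 2.91e-06, limma).

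Ddit4, also called REDD1, is known to restrain mTORC1. Ddit4 (GRCm38, chr10:59949669-59951834) had 40.9 and 39.3 RPKM at rest, and 7.77, 11.2, 12.3, 11.9, 9.18 and 11.3 RPKM in the Th0 cultures, 12.5, 12.7, 15.2, 15.1, 10.5 and 10.1 RPKM in those of Th1 and 10.3, 15.4, 17.4, 14.2, 10.7 and 8.14 RPKM in those of Th2. All 18 cultures were below rest and the groups did not overlap. The gene was 3.86-fold lower at 4 h (log2 change -1.95, standard error 0.19, adjusted p = 1.40e-06, limma) and 3.94-fold lower at 24 h (log2 change -1.98, standard error 0.19, adjusted p = 2.97e-07, limma). Both Asns and Ddit4 fell between rest and 4 h, as did the summed macrophage and monocyte markers, and the part of those cells was not tested.

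Ddit3, which encodes the transcription factor CHOP, had 30.7 and 30.5 RPKM at rest, then 26.2, 20.9, 17.5, 18.1, 16.2 and 13.6 RPKM in the Th0 cultures, 21.3, 20.7, 16.1, 14.9, 14 and 12.4 RPKM in those of Th1 and 27, 16.7, 19.6, 19.4, 16.3 and 15.9 RPKM in those of Th2. It was lower at 24 h (log2 change -1.11, standard error 0.15, adjusted p = 9.39e-06, limma), where it was first called. With median-of-ratios scaling the log2 change was -0.97, just under 2-fold.

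Trib3, a pseudokinase that ATF4 and CHOP induce, was low throughout. It had 2.53 and 2.59 RPKM at rest, and 5.33, 7.54, 4.88, 3.53, 2.72 and 2.31 RPKM in the Th0 cultures, 3.76, 5.86, 2.82, 4.2, 1.66 and 1.5 RPKM in those of Th1 and 6.5, 3.19, 3.13, 2.82, 1.54 and 1.26 RPKM in those of Th2. The 9 cultures from 4 to 12 h were all above rest and the Th1 and Th2 libraries at 20 and 24 h were below it. No time point was called in the main fit (log2 change 0.91 at 8 h, standard error 0.32, adjusted p = 0.0249, limma).

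Sesn2, a leucine-binding inhibitor of mTORC1 signalling, ranged from 3.15 to 6.1 RPKM. Its largest change was 1.55-fold at 4 h (log2 change 0.63, standard error 0.19, adjusted p = 0.0167, limma). It was called at no time point in the main fit. Chac1, which breaks down glutathione, was near the limit of detection. It had 6 and 10 reads at rest, 18, 23 and 19 reads at 4 h and 28, 50 and 29 reads at 8 h in Th0, Th1 and Th2. Set against the depth, the 3 libraries at 8 h together held 4.00 times the resting level (conditional binomial 95% interval 2.36 to 7.26), and those at 24 h 1.55 times (0.864 to 2.94). These intervals cover counting error only, and Chac1 was not tested.

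Short stretches around the element bound by ATF4 with C/EBP factors are shown because members that rose, members that were not called and 1 that fell all carried its letters. The element was searched as TGATGNAA on both strands, where N is any base, in the RefSeq promoter windows of GRCm38.p6, which run from 250 bases before to 50 bases after each transcription start. Windows existed for 26 members (Mars under the name Mars1), and no entry was matched for Cars, Hars, Lars, Nars, Rars, Vars, Wars, Slc7a5, Slc1a5 and Slc38a1. Of the 26, 10 held a match, 9 of which are shown, where 3.97% of all 32851 windows and 4.51% of 27025 genes did. A match is a description of letters and not a site shown to be bound. In the stretches of 30 bases below, written 5′ to 3′ on the strand of the gene, capitals mark the match.
Asns: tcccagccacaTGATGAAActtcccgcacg
Gars: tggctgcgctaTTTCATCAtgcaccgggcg
Iars: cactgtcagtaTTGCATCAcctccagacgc
Tars: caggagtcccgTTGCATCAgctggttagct
Yars: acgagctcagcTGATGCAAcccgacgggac
Trib3: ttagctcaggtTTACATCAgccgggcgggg
Chac1: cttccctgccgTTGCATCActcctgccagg
Slc7a11: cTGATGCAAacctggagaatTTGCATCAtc
Slc1a4: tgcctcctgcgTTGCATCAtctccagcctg

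These stretches lie at chr6:7693214-7693243, minus strand (Asns), chr6:55037960-55037989, plus strand (Gars), chr13:49682126-49682155, plus strand (Iars), chr15:11399655-11399684, minus strand (Tars) and chr4:129189895-129189924, plus strand (Yars). The others are chr2:152344028-152344057, minus strand (Trib3), chr2:119351038-119351067, plus strand (Chac1), chr3:50443651-50443680, minus strand (Slc7a11) and chr11:20332699-20332728, minus strand (Slc1a4). The matches shown began between 193 bases before the start, in Chac1, and 15 bases after it, in Trib3. Slc7a11 held 2 matches on opposite strands. Of the 9 genes shown, Gars, Iars, Tars, Yars and Slc1a4 were higher at 24 h, Asns was lower, Trib3 and Slc7a11 were not called and Chac1 was not tested.

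The E-box CACGTG, which MYC and related factors bind, was in the windows of 4 of the 26 members (Farsb, Iars and Tars among them; 8.09% of all genes). The core of the interferon-stimulated response element, GAAANNGAA, was found in Qars alone of the 26 (9.76% of all genes). The STAT site TTCNNNGAA was found in 4 (Kars, Slc7a1 and Slc7a11 among them; 9.55% of all genes).

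Among the transporters, 4 of 9 were higher at 24 h and none was lower, with a median log2 change of 0.99, and at 20 h 6 of 9 were higher. The largest changes at 24 h were those of Slc7a6, Slc7a5 and Slc7a1. Slc7a6, which exchanges cationic for neutral amino acids with SLC3A2, had 12.8 and 13.4 RPKM at rest. It had 19.7, 25.1, 31.4, 30.9, 31 and 32.6 RPKM in the Th0 cultures, 22.9, 36.7, 35.5, 31.2, 31.2 and 33.9 RPKM in those of Th1 and 27.2, 39, 36.8, 33.1, 34.2 and 35.6 RPKM in those of Th2. Every culture was above both resting libraries from 4 h on, with 1.73-fold at 4 h (log2 change 0.79, standard error 0.16, adjusted p = 0.00108, limma) and 2.53-fold at 24 h (log2 change 1.34, standard error 0.16, adjusted p = 2.32e-06, limma).

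Slc7a5 (LAT1), which carries leucine and other large neutral amino acids as the partner of SLC3A2, had 25 and 31.3 RPKM at rest. Th0 gave 26.1, 38.9, 69.9, 78, 77.5 and 67.2 RPKM, Th1 31, 72.5, 81, 70.3, 81.8 and 83.7 RPKM and Th2 59, 99.9, 81.7, 88.5, 81.2 and 59.4 RPKM. Th0 and Th1 at 4 h lay between the resting libraries, the other 16 cultures were above both, and Th2 at 8 h was the highest. The change was 2.46-fold at 24 h (log2 change 1.30, standard error 0.32, adjusted p = 0.00208, limma). Slc3a2, the heavy chain shared by SLC7A5, SLC7A6 and SLC7A11, ranged from 50.4 to 134 RPKM and was not called, although its 8 h change of 1.82-fold had an adjusted p of 0.00315 in limma. By 24 h it had 64.2 RPKM in Th0, 62 in Th1 and 50.4 in Th2, against 54.2 ± 0.433 RPKM (SD, n = 2) at rest.

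Slc7a1, the carrier of arginine and lysine, had 17 and 17.3 RPKM at rest. Its cultures had 22.9, 26.9, 49.1, 56.4, 47.1 and 42.8 RPKM in the Th0 cultures, 25.9, 50.9, 56.8, 48.4, 47 and 45.8 RPKM in those of Th1 and 44.3, 77.8, 67.7, 58.7, 52 and 36.9 RPKM in those of Th2. All 18 were above rest. It was not called at 4 h (log2 change 0.78, standard error 0.31, adjusted p = 0.068, limma). By 24 h it was 2.4-fold above rest (log2 change 1.26, standard error 0.31, adjusted p = 0.00218, limma).

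Slc1a5 (ASCT2), a carrier of glutamine and other small neutral amino acids, was the most abundant transporter per length. It had 121 and 132 RPKM at rest, and 142, 189.7, 331, 311, 284 and 205 RPKM in the Th0 cultures, 145, 365, 315, 264, 255 and 240.0 RPKM in those of Th1 and 219.5, 539, 404, 309, 251 and 187 RPKM in those of Th2. The Th1 and Th2 libraries were highest at 8 h and lower at each later time point, while Th0 was highest at 12 h. Slc1a5 was called from 8 h (2.63-fold) to 20 h (2.07-fold) but not at 24 h (1.65-fold, adjusted p = 0.0379, limma).

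Slc1a4, which carries serine and alanine, was low and rose from 0.499 ± 0.0274 RPKM (SD, n = 2) to 1.53 ± 0.289 RPKM at 24 h (SD, n = 3; log2 change 1.02, standard error 0.19, adjusted p = 0.000164, limma). This call was lost in several alternatives, among them those without resting replicate 2, without the Th0 or the Th1 cultures and without the red cell genes (0.97). Slc38a1, a sodium-coupled carrier of glutamine, ranged from 17.9 to 48.2 RPKM, was called at 12, 16 and 20 h and had a 1.98-fold change at 24 h. Its relative Slc38a2 (62.4 to 97.2 RPKM) and the cystine carrier Slc7a11 (1.63 to 2.87 RPKM) were called at no time point. The log2 change at 24 h was -0.08 for Slc38a2 (standard error 0.13) and -0.26 for Slc7a11 (standard error 0.17).

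**Figure D3:**
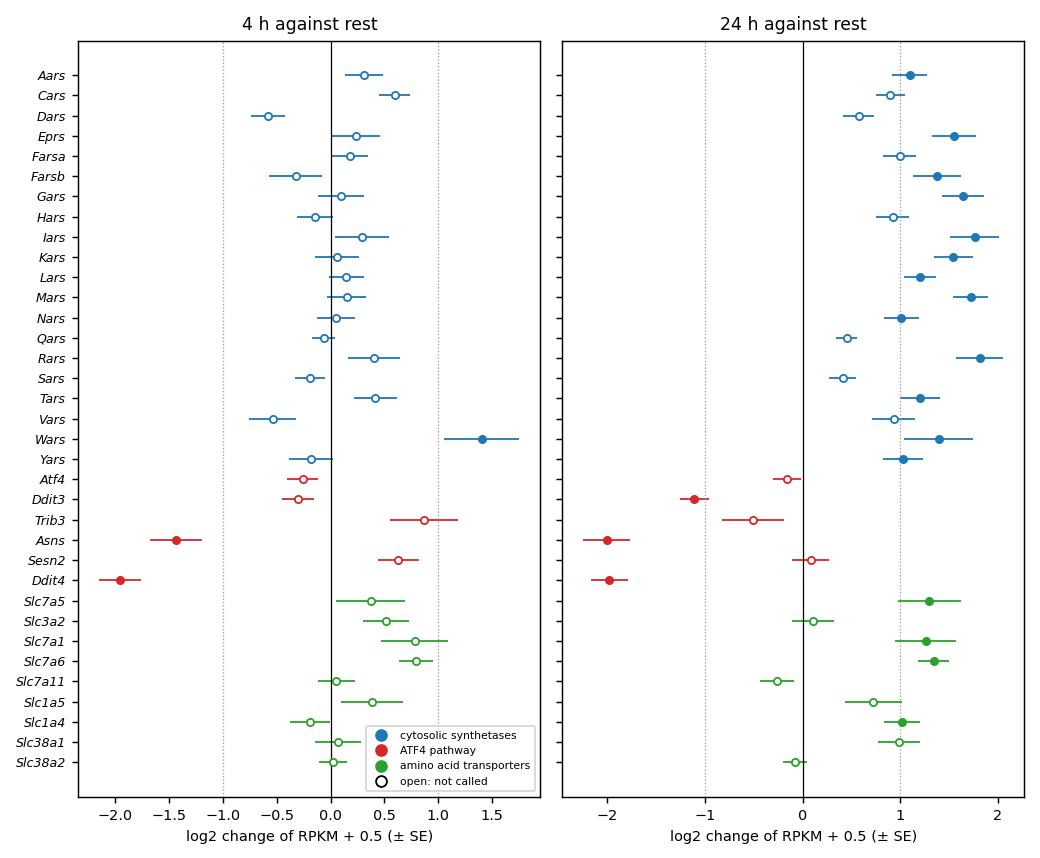
Log2 change from rest with its standard error for the 35 members tested, at 4 h on the left and 24 h on the right. Filled points are called, dotted lines mark 2-fold. At 4 h only Wars, Asns and Ddit4 are filled, and at 24 h 17 members are filled on the right of 0 and 3 on the left.

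Of the steps between neighbouring time points, only that from 4 to 8 h had called members. Farsb and Slc1a5 were called higher at 8 h than at 4 h (2.95% of all genes tested), Farsb by 2.15-fold (log2 change 1.11, standard error 0.22, adjusted p = 0.00324, limma) and Slc1a5 by 2.02-fold (log2 change 1.01, standard error 0.26, adjusted p = 0.0106, limma). A further 18 members had an adjusted p under 0.05 at less than 2-fold, all of them higher. At any fold, 1722 of 10897 genes tested were higher at that threshold and 1367 were lower. The median log2 change of the members was 0.54. Without Th0 at 8 h, 12 members were called, without Th2 at 4 h 6, and without the Th1 cultures none. For these fits the share of all genes called is not given here. From 8 to 12 h, 12 to 16 h, 16 to 20 h and 20 to 24 h no member was called (1.25%, 0.248%, 0.367% and 0.431% of all genes tested). In these steps 7, 1, 2 and 1 of the 35 had an unadjusted p under 0.05 in limma. Of the 10897 genes tested, 1703, 780, 838 and 974 did.

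The Th0 library at 8 h was below both other cultures of its time for Slc1a5 and most other members. Without it 15 members were higher than at rest at 8 h in place of 9, Cars, Farsb, Gars, Kars, Slc3a2 and Slc38a1 being added. The share of all genes called without it is not given here. In the Th0 library at 8 h Slc1a5 was at 189.7 RPKM against 365 RPKM in Th1 and 539 RPKM in Th2.

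In the comparison of the conditions over the 6 time points no member was called. Th2 against Th0 gave 0 of 35 (2.01% of all genes tested), Th2 against Th1 likewise 0 (1.96%), and Th1 against Th0 also 0 (0.494%). Unadjusted p in limma was under 0.05 for 24, 7 and 7 of the 35 members. Of all 10737 genes tested, 4423, 2718 and 1757 were under it. At any fold, 15 members were higher and 2 lower in Th2 than in Th0 at an adjusted p under 0.05, and 29.6% of all genes passed in either direction. The 2 lower ones were Wars and Trib3, and the higher ones included Eprs (0.48, standard error 0.08) and Lars (0.33, standard error 0.07).

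Wars had the largest difference of any member for both Th2 comparisons. In Th2 minus Th0 its log2 difference was -0.76 (standard error 0.09, adjusted p = 3.52e-05, limma) and in Th2 minus Th1 -0.67 (standard error 0.09, adjusted p = 0.000125, limma), both under 2-fold. Between Th1 and Th0 Wars differed by -0.08 (standard error 0.09), and the largest difference there was that of Trib3 (-0.39, standard error 0.16, adjusted p = 0.249, limma). These comparisons share cultures. Their p-values treat the time points of a condition as independent, although these may be repeated samples of 1 culture.

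Early in the time course many members stood in the order Th0, Th1, Th2. At 4 h 19 of 35 members were lowest in Th0 and highest in Th2 (19.6% of all genes tested), at 8 h 29 (32.3%) and at 12 h 25 (27.7%). At 16 h 13 did so (16.9%), at 20 h 15 (21.2%) and at 24 h 5 (14.5%). At 8 h, 19 of the 20 synthetases stood in this order, Wars being the exception, and so did 7 of the 9 transporters, all but Slc7a11 and Slc38a2. Each position in this order is 1 library. At 8 h the summed red cell markers also differed, with 28492 RPKM for Th0, 19345 RPKM for Th1 and 14994 RPKM for Th2, and their part was not tested.

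The median difference of the transporters between Th2 and Th0 was 0.97 at 8 h and -0.18 at 24 h on the log2 scale, beside 0.00 and -0.07 for all genes tested. A contrast chosen after seeing the data compared the Th2 minus Th0 difference at 4 and 8 h with that at 12 to 24 h. Slc7a5, Slc7a1 and Slc1a5 were called in it (1.93% of all genes tested), with larger differences early, by 1.18 (standard error 0.21, adjusted p = 0.00475, limma), 1.11 (standard error 0.22, adjusted p = 0.00929, limma) and 1.07 (standard error 0.24, adjusted p = 0.0196, limma). Without the Th0 library at 8 h none of them was called, with log2 values of 0.98, 0.78 and 0.62 in the same order. Without the Th2 library at 24 h only Slc7a5 was.

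**Figure D4:**
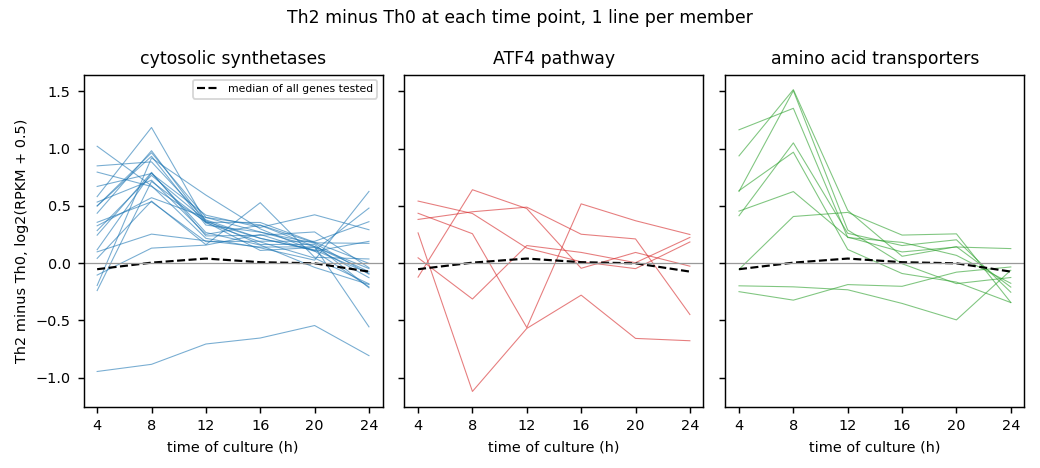
Th2 minus Th0 in log2(RPKM + 0.5) at each time point, 1 library against 1, with 1 line per member (Chac1 left out) and a panel for each role. The dashed line is the median of all genes tested. Most synthetase and transporter lines are above 0 at 8 h and close to it at 20 h, and the lowest synthetase line is that of Wars.

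The synthetases differed among themselves in the Th2 library at 24 h. Relative to the other 2 cultures of that time it was higher in Rars by 0.59, Farsb by 0.43, Dars by 0.39 and Eprs by 0.30 on the log2 scale, and Wars and Sars were at -0.81 and -0.50. Across the 20 synthetases this difference ran against the GC content of their transcripts, from 41.0% in Rars to 58.2% in Vars, with a Spearman correlation of -0.69 and a Pearson correlation of -0.76. Across 10488 genes the Spearman correlation was -0.37 in this library. In Th0 and Th1 at 24 h it was 0.56 and 0.69 over the 20 synthetases, and 0.24 and 0.32 over all genes. At 4 h it was 0.84 in Th0 and -0.75 in Th2 over the synthetases, where all genes gave 0.26 and 0.08. These are correlations across genes within a library, which are not independent replicates. Each library was set against the other 2 of its time, so the values of a time point also depend on one another. The part of GC content in the differences was not tested. Without the Th2 library at 24 h, 20 members were higher at 24 h and 3 lower, against 17 and 3 with it. The share of all genes called without it is not given here.

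After actinomycin the members covered much of the range of all genes. The slope of log2(RPKM + 0.1) on hours had a median of -0.10 per h for the 20 synthetases, -0.17 for the 6 ATF4 pathway genes and -0.01 for the 9 transporters, beside 0.00 for 10571 genes tested. Without the 4 h library these medians, taken relative to all genes, were -0.06, -0.06 and 0.02. As RPKM is relative to all mapped reads, a slope gives loss relative to other RNAs and not a half-life. The slopes come from 1 library per time point and are given as a description, with no test.

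Sesn2, Rars and Ddit4 had the lowest slopes. Sesn2 had 3.03, 3.3, 1.4 and 1.02 RPKM at 0, 1, 2 and 4 h, a slope of -0.42 per h (standard error 0.13), and 1.15% of genes had a lower one. Its reads fell from 271 at 0 h to 64 at 4 h, a ratio of 0.337 at equal depth (conditional binomial 95% interval 0.252 to 0.444). Rars had 162, 141, 130.1 and 64.4 RPKM, with a slope of -0.33 per h (standard error 0.07), and without the 4 h library the slope was -0.16. Ddit4 had 24.2, 22.4, 15.2 and 11.5 RPKM and a slope of -0.28 per h (standard error 0.05).

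The highest slopes were those of Slc1a5, Vars and Slc7a11. Slc1a5 had 260.3, 302, 301 and 422 RPKM and a slope of 0.17 per h (standard error 0.03), above that of 87.3% of genes, and without the 4 h library the slope was 0.11. Vars had 129, 151, 112 and 182 RPKM without a steady course, and its slope of 0.10 per h (standard error 0.10) was -0.10 without the 4 h library. Slc7a11 had 1.9, 2.13, 2.59 and 2.54 RPKM and a slope of 0.10 per h (standard error 0.04), which was 0.21 without the 4 h library. Of the genes that rose with activation, Eprs and Tars were at 0.485 and 0.483 of their 0 h RPKM after 4 h, while Kars was at 1.23, Slc7a5 at 1.22 and Slc7a6 at 0.969. Atf4 had 148, 162, 183 and 139 RPKM. Chac1 had 14 and 9 reads at 0 and 1 h and 0 reads at 2 and 4 h, which allows up to 0.0978 and 0.102 RPKM (3 reads).

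**Figure D5:**
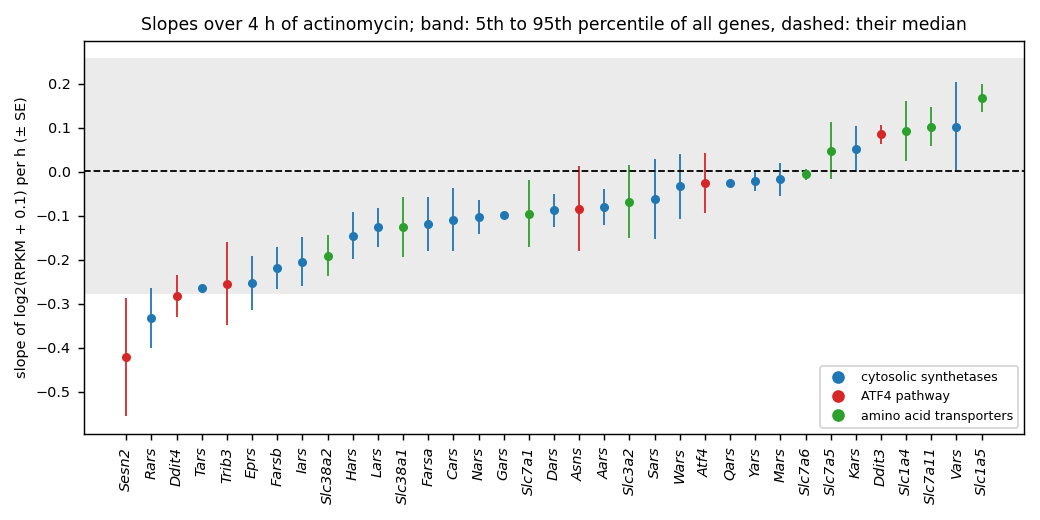
Slope of log2(RPKM + 0.1) per h over 0, 1, 2 and 4 h of actinomycin, with its standard error, for the 35 members with a mean of at least 1 RPKM in these libraries. The dashed line is the median of all genes and the band their 5th to 95th percentile. Sesn2, Rars and Ddit4 lie below the band, and Slc1a5 is the highest member.

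The actinomycin library at 0 h, taken after 16 h of activation, was set beside the 3 cultures at 16 h. The labels of the actinomycin libraries lack the tag shared by the cultures, and a difference in preparation cannot be told apart. Of 35 members, 11 were above all 3 (28.0% of all genes tested) and 7 below all 3 (39.0%). Ddit4 was at 24.2 RPKM against 11.9, 15.1 and 14.2 RPKM in Th0, Th1 and Th2 at 16 h, and Asns at 7.42 RPKM against 3.12, 3.09 and 4.68 RPKM. Wars, at 68.7 RPKM, was below the 3 cultures, with 113, 107 and 71.3 RPKM. Macrophage and monocyte markers summed to 54.7 to 77.4 RPKM in the actinomycin libraries against 11.7 to 28.4 RPKM at 16 h. In the library at 0 h most of this sum was Lyz2, at 45.9 RPKM against 15.5, 15.1 and 4.03 RPKM in Th0, Th1 and Th2. Of the other genes of that list, Csf1r and Adgre1 were slightly above the 3 cultures and the rest were not. Among 6 neutrophil markers, Mpo, Elane, S100a8 and Camp were above the 3 cultures, and S100a9 and Ly6g were not. The part of these other cells was not tested.

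Other genes with related functions were grouped in 7 lists and compared with rest at 24 h, where 12.7% of all genes tested were higher and 17.4% lower. Among the 17 mitochondrial synthetases, 2 were higher and none lower, with Yars2 rising most (log2 change 1.71, standard error 0.28, adjusted p = 5.70e-05, limma) and Ears2 at the other end (log2 change -0.43, standard error 0.16, adjusted p = 0.0251, limma). After quantile normalization Ears2 was at 0.01. Yars2 had 11 ± 1.64 RPKM at rest (SD, n = 2) and 34.4, 38.5 and 37.9 RPKM in Th0, Th1 and Th2 at 24 h. All 3 scaffold genes of the multi-synthetase complex rose, from Aimp1 (log2 change 1.13, standard error 0.19, adjusted p = 6.89e-05, limma), which was at 0.95 and not called after quantile normalization, to Eef1e1 (log2 change 2.18, standard error 0.31, adjusted p = 1.81e-05, limma).

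Eif2s1, which encodes eIF2α, rose most among 12 genes of eIF2α, its kinases and phosphatase subunits and eIF2B (log2 change 1.75, standard error 0.22, adjusted p = 4.58e-06, limma), of which 4 were higher and 2 lower. Ppp1r15a, or GADD34, which directs the phosphatase to eIF2α, fell most (log2 change -4.34, standard error 0.15, adjusted p = 3.58e-13, limma). Ppp1r15a had 326 ± 7.05 RPKM at rest (SD, n = 2) and 16.6, 17.6 and 12.9 RPKM in Th0, Th1 and Th2 at 24 h. Of 13 other ATF4 partners and targets tested, 6 were higher and 1 lower. Shmt2, a mitochondrial enzyme of serine and glycine metabolism, led the rises (log2 change 2.57, standard error 0.33, adjusted p = 5.16e-06, limma) and Cebpb, a C/EBP partner of ATF4, was the 1 that fell (log2 change -1.72, standard error 0.26, adjusted p = 2.37e-05, limma).

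Of the other amino acid transporters, 1 of 13 was higher and 9 were lower at 24 h, with a median log2 change of -1.48. Slc6a6, the taurine carrier, was the 1 that rose (log2 change 1.09, standard error 0.16, adjusted p = 1.73e-05, limma; 0.99 and not called without the red cell genes). Slc38a5 fell most, with 20.7 ± 1.6 RPKM at rest (SD, n = 2) and 0.0188, 0.0365 and 0.0419 RPKM in Th0, Th1 and Th2 at 24 h. Over the cultures alone 12 of these transporters passed the filter of 1 RPKM. The summed red cell markers also fell, from 38898 to 42449 RPKM at rest to 142 to 212 RPKM at 24 h. The part of other cells in these falls was not tested. Of 30 genes of amino acid sensing by mTORC1, 3 were higher and 1 lower, namely Sesn1 (log2 change -1.73, standard error 0.27, adjusted p = 3.25e-05, limma), and Wdr59 rose most (log2 change 1.28, standard error 0.38, adjusted p = 0.00735, limma). Of 10 genes of amino acid use, 4 were higher and 1 lower. Bcat1, which removes the amino group of branched-chain amino acids, rose most, with 0.945 ± 0.482 RPKM at rest (SD, n = 2) and 56.8, 71.4 and 47.7 RPKM in Th0, Th1 and Th2 at 24 h. Glul, glutamine synthetase, was the 1 that fell (log2 change -1.47, standard error 0.16, adjusted p = 8.97e-07, limma).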

How the data were processed

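The authors deposited 1 table of RPKM values per gene symbol for 24 libraries, with 22010 entries, 1 of them unnamed and at 0. The submitters' processing notes name BWA and GRCm38; the version and the way reads were counted are not given in the sources used here. Whole reads could be recovered for 6735 of 16823 genes (40.0%, within 0.02 of a whole number), 12 members among them, and the step of 1341 of 2244 single-transcript genes gave the same depth.

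Members and gene lists were chosen with earlier results of these data known. Genes averaging 1 RPKM or more entered limma 3.58.1 (R 4.3.3) on log2(RPKM + 0.5), with the trend option of its empirical Bayes step. P-values were adjusted by Benjamini-Hochberg over all genes entered, and a call needed an adjusted p under 0.05 and 2-fold. The time point was the factor over 20 libraries. Conditions were compared over 18 cultures with the time point as a second factor. Simulated data were made with a log2 change of 2 in either direction and with normal spread, independent between genes. In them 192 of 200 changed genes were recovered at 24 h and 195 of 200 between Th2 and Th0. There were 2 and 0 false calls. Smaller changes were not simulated. Counting intervals are 95% and cover counting error only.

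Values per library are given for the 3 members of each role with the largest change at 24 h, the 2 at 4 h, the largest differences between conditions and the 3 lowest and highest slopes; Slc1a5 was added after its values were seen. Alternatives were other pseudocounts and filters, 3 rescalings (quantile, upper-quartile or median-of-ratios), a fit without the trend, fits to the compared libraries alone, condition as a term, libraries or cultures left out, and 12 to 24 h alone. Leaving out red cell genes or 1 library standing apart, 4 and 8 h alone, and the early against late contrast were chosen after seeing the data. Promoter windows are from RefSeq (GRCm38.p6) and gene positions and transcripts from GENCODE M21. The sequence at 1 further match is not reported here. Python 3.11.15, numpy 2.4.6, pandas 2.3.3, scipy 1.17.1 and matplotlib 3.10.9 were used.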

Additional observations from a re-analysis of the deposited data

Results flagged for a closer look

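For 6 members the difference between Th2 and Th0 was larger at 4 and 8 h than at 12 to 24 h, by a test of that change in limma at an adjusted p under 0.05. On the log2 scale the change was 1.18 for Slc7a5, 1.11 for Slc7a1, 1.07 for Slc1a5, 0.92 for Slc3a2, 0.76 for Iars and 0.58 for Tars. The contrast was chosen after seeing the data. For all 6 the adjusted p was above 0.05 without the Th0 library at 8 h, with values of 0.0536 (Slc7a5), 0.0975 (Slc7a1), 0.188 (Slc1a5), 0.0583 (Slc3a2), 0.355 (Iars) and 0.185 (Tars). Over the alternatives it was 0.00202 to 0.0536 for Slc7a5, 0.00323 to 0.0975 for Slc7a1 and 0.00893 to 0.188 for Slc1a5.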

How the results depend on the processing

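Counts of called members not named here stayed within 1.5 times their value under every alternative. Median-of-ratios scaling moved the median over the genes tested at 24 h from -0.04 to 0.10, quantile normalization to 0.13 and leaving out the red cell genes to -0.13, where 22, 16 and 13 members were higher in place of 17. At 4 h, 3 members in place of 1 were higher with quantile normalization (Wars, Sesn2 and Trib3), and 0 to 1 when a library or condition was left out. At 8 h, 7 to 15 members were higher when a library or condition was left out. From 4 to 8 h, 1 member in place of 2 was called with upper-quartile scaling and 1 without the red cell genes, and 0 to 12 with libraries left out. Between Th2 and Th0, 3 members were higher with 4 and 8 h alone, beside 302 of 10870 genes tested. For the fits with other scaling or with libraries or genes left out, the share of all genes called is not given here. The early against late contrast called 0 to 3 members with 1 library left out. The slope of the ATF4 pathway genes relative to all genes was -0.17 and ranged from -0.2108 to -0.0633 with 1 time point left out, that of the synthetases was -0.10 (-0.1192 to -0.0616) and that of the transporters -0.01 (-0.0112 to 0.0218). Ears2 changed sign at 24 h with quantile normalization (0.0124). The cause was not tested.

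No pairing by replicate was possible because only the resting libraries carry replicate numbers. Cultures of the 3 conditions were matched by time point, which was a factor in their comparison throughout. Each culture was sequenced once, so biological variation between animals or cultures was not measured, and a difference of 1 library from another cannot be told from a difference between conditions. RPKM gives shares of RNA and no amounts per cell. Chac1, Slc1a4, Slc7a11 and Trib3 were at a few RPKM or less, where a pseudocount of 0.5 shrinks changes.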
